A study of Mus musculus with 12 samples.

Results

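Transcripts of 6 genes of the STAT family (Stat2, Stat3, Stat4, Stat5a, Stat5b and Stat6) were followed in 4T1, an established mammary tumour line from a BALB/c mouse. The members were the rows of the count table that carry these gene symbols, 6 of 22298 genes in the table, and 5 of them passed the low-count filter that left 11904 genes for testing. The cells carried a Rosa26 guide RNA, which targets a locus commonly used as a neutral site, or 1 of a pair of guides against Cop1, named Cop1_sgRNA1 and Cop1_sgRNA2. Cop1 encodes an E3 ubiquitin ligase. Cells of each population were given vehicle or, over 24 hours, 20 ng/ml of the cytokine interferon gamma (IFNγ), which made 6 groups of 2 libraries. The labels do not say whether the guide-carrying populations were clones or pools, what drove Cas9, or whether replicates came from separate cultures. The p-values therefore reflect only the spread between these libraries, which may be technical. In bulk RNA, fewer cells that express a gene and less of its RNA per cell cannot be told apart.

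STAT proteins are transcription factors that wait in the cytoplasm until a cytokine binds its receptor and a JAK kinase attached to that receptor phosphorylates them. They then pair up, enter the nucleus and bind DNA, most of them at gamma-activated sites (GAS), while the interferon complex ISGF3, which contains STAT2 and IRF9, binds interferon-stimulated response elements (ISRE). In mammary epithelium STAT5A and STAT5B are known for driving the prolactin-dependent milk programme, STAT3 for the involution that follows weaning, and STAT6 for responses to interleukins 4 and 13. STAT4 is known from lymphocytes that respond to interleukin 12.

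Libraries held 19378070 to 32609717 gene counts. Levels are given in CPM (counts scaled by the TMM-adjusted library size), as mean ± SD of 2 libraries. Cop1, the targeted gene, had 93.9 ± 5.996 CPM in Rosa26 cells, 61.1 ± 2.83 in Cop1_sgRNA1 cells and 34.6 ± 0.204 in Cop1_sgRNA2 cells with vehicle, and 81.9 ± 2.07, 60.4 ± 0.388 and 32.9 ± 0.935 with IFNγ. The guide populations therefore differed in how much Cop1 mRNA they kept. These RNA data do not measure Cop1 protein, so Cop1 loss here means carrying a Cop1 guide. Of 10 epithelial markers, 8 had at least 76.34 CPM in every library, among them Krt8 (728.6 to 1300 CPM), Epcam (204.4 to 343.2 CPM) and Cdh1 (331.7 to 497.9 CPM), whereas the basal keratins Krt14 (7.978 to 19.89 CPM) and Krt5 (no count) were low. Of the 9 tested, 6 fell and 2 rose with IFNγ in Rosa26 cells (Krt8 log2 change -0.58 ± 0.026), and with Cop1 loss 4 rose and 2 fell with vehicle (Cdh1 -0.48 ± 0.025) and 5 rose and 3 fell with IFNγ. Over all genes tested 16.2% fell and 16.6% rose with IFNγ in Rosa26 cells. With Cop1 loss 16.6% rose and 19.2% fell with vehicle, and 19.8% rose and 20.7% fell with IFNγ. The 2 of 9 that rose with IFNγ and the 2 of 9 that fell with Cop1 loss in vehicle were near these shares. The summed level of the 10 epithelial markers ran from 4134 to 4509 CPM over the vehicle libraries and from 3558 to 3894 CPM over the IFNγ libraries. Of 12 leukocyte markers, 7 had no count in any library, among them Cd3e, Cd4, Nkg7 and Adgre1, and Ptprc stayed at or below 0.26 CPM. The summed level of the 12 was 9.727 to 12.83 CPM in Rosa26 libraries and 7.015 to 8.772 CPM in Cop1-guide libraries. Most of it was Cd68, which was lower with Cop1 loss, the mean of both Cop1 guides against Rosa26 (log2 change -0.40 ± 0.125 with vehicle, edgeR adjusted p = 0.00942, and -0.60 ± 0.120 with IFNγ, adjusted p = 8.32e-05). Of 8 fibroblast and endothelial markers, 7 stayed at or below 0.7516 CPM. The exception, Pdgfra (15.17 to 23.31 CPM), was lower with Cop1 loss in vehicle (-0.26 ± 0.081, adjusted p = 0.0114) and with IFNγ in Rosa26 cells (-0.48 ± 0.096, adjusted p = 1.03e-04). With Cop1 loss in vehicle 2 of the 3 tested markers of that list were lower, where 19.2% of all genes were. The part of these marker changes in the results that follow was not tested.

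The 6 genes lie on 3 chromosomes of GRCm38, the assembly behind mm10, and all are protein-coding in GENCODE M21. Stat5b (chromosome 11, 100780731 to 100850724, minus strand, 19 exons in its principal transcript), Stat5a (100859351 to 100885169, plus strand, 20 exons) and Stat3 (100885098 to 100939540, minus strand, 24 exons) are neighbours on chromosome 11. A gap of 8626 bases separates Stat5b from Stat5a, and the 3′ ends of Stat5a and Stat3 overlap by 72 bases. The sources used here do not give the strand setting of the authors' counting, so reads in that overlap cannot be assigned to Stat5a or Stat3 with certainty. Stat5a and Stat5b are close paralogs, and how reads that match both were counted is likewise not given, which leaves their values uncertain. Stat6 (127642986 to 127660957, plus strand, 22 exons) and Stat2 (128270559 to 128292849, plus strand, 24 exons) lie 609.6 kb apart on chromosome 10, and Stat4 (51987148 to 52107189, plus strand, 24 exons) lies on chromosome 1.

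Promoter windows of 250 bases before the transcription start were read from RefSeq (GRCm38.p6) for all 6 genes, 9 windows in all, and searched on both strands for the GAS letters TTCNNNGAA and for the ISRE core, the letters GAAA repeated after any 2 bases (GAAA, NN, GAAA). Windows are shown for Stat2 and Stat3, the members that IFNγ raised most, and for the window of Stat4 that holds the other match; capitals mark the ISRE core, which in the Stat2 window reads on the minus strand. The Stat2 window is chr10:128270248-128270497 on the plus strand, the Stat3 window chr11:100939541-100939790 on the minus strand, and the Stat4 window chr1:52007990-52008239 on the plus strand.
Stat2: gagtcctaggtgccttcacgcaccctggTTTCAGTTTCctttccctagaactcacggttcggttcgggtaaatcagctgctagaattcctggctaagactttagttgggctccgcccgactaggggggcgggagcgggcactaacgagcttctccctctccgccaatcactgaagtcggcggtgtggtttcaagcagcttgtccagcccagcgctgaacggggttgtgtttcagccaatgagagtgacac
Stat3: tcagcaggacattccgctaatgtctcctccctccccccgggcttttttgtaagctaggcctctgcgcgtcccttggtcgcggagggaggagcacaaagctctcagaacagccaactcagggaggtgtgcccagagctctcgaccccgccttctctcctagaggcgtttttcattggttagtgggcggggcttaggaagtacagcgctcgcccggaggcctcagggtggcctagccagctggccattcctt
Stat4: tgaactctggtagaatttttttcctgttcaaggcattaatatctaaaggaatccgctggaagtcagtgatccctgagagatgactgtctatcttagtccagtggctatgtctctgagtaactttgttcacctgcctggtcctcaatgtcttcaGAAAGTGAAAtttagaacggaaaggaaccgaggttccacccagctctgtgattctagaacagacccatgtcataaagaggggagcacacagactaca
The ISRE core lay 222 bases before the start in the Stat2 window and 97 bases before the start in the second Stat4 window, and it was in none of the other 7. No window of the 6 genes held the GAS letters. Of 32851 mouse promoter windows of the same length, 2.98% held the ISRE core and 7.02% the GAS letters. A match describes letters in this window only.

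IFNγ raised Stat2 and Stat3 in all 3 cell populations. Stat2 encodes the STAT that pairs with IRF9 in ISGF3. In Rosa26 cells it stood at 21.5 and 24.1 CPM with vehicle and at 173.7 and 163.8 CPM with IFNγ. In Cop1_sgRNA1 cells the values were 20.7 and 19.2 with vehicle and 132.3 and 132.9 with IFNγ, and in Cop1_sgRNA2 cells 21.5 and 20.5 with vehicle and 154.9 and 155.2 with IFNγ. Every treated library lay far above every vehicle library. The ratio of group means was 7.40 in Rosa26, 6.65 in Cop1_sgRNA1 and 7.39 in Cop1_sgRNA2 cells. With edgeR's quasi-likelihood test and Benjamini-Hochberg adjustment over all genes tested, the log2 change was 2.89 ± 0.057 (SE; adjusted p = 1.55e-35) in Rosa26 cells and 2.81 ± 0.042 (adjusted p = 9.07e-41) over both Cop1 guides.

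Stat3 encodes the STAT downstream of the interleukin 6 family. Its values were 75.4 and 72.2 CPM in Rosa26 vehicle, 67.8 and 63.6 in Cop1_sgRNA1 vehicle, and 63.04 and 65.9 in Cop1_sgRNA2 vehicle. With IFNγ the 6 libraries fell in a narrow band, at 151.9 and 150.1 in Rosa26, 148.0 and 149.0 in Cop1_sgRNA1, and 151.1 and 150.0 in Cop1_sgRNA2. The groups did not overlap between treatments. The log2 change in edgeR was 1.03 ± 0.045 (adjusted p = 7.86e-23) in Rosa26 cells and 1.197 ± 0.032 (adjusted p = 9.21e-31) in Cop1-loss cells, and ratios of group means were 2.05, 2.26 and 2.34 in Rosa26, Cop1_sgRNA1 and Cop1_sgRNA2 cells.

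In Rosa26 cells these were the members called at an adjusted p under 0.05: 2 of 5 rose and 0 fell, where 16.6% of all genes tested were called higher, 16.2% lower and 32.8% in either direction. In Cop1-loss cells 4 of 5 were called, 3 higher and 1 lower, where 18.1% of all genes were higher, 16.1% lower and 34.2% either. The further calls in Cop1-loss cells were a rise of Stat5b and a decrease of Stat6.

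**Figure D1:**
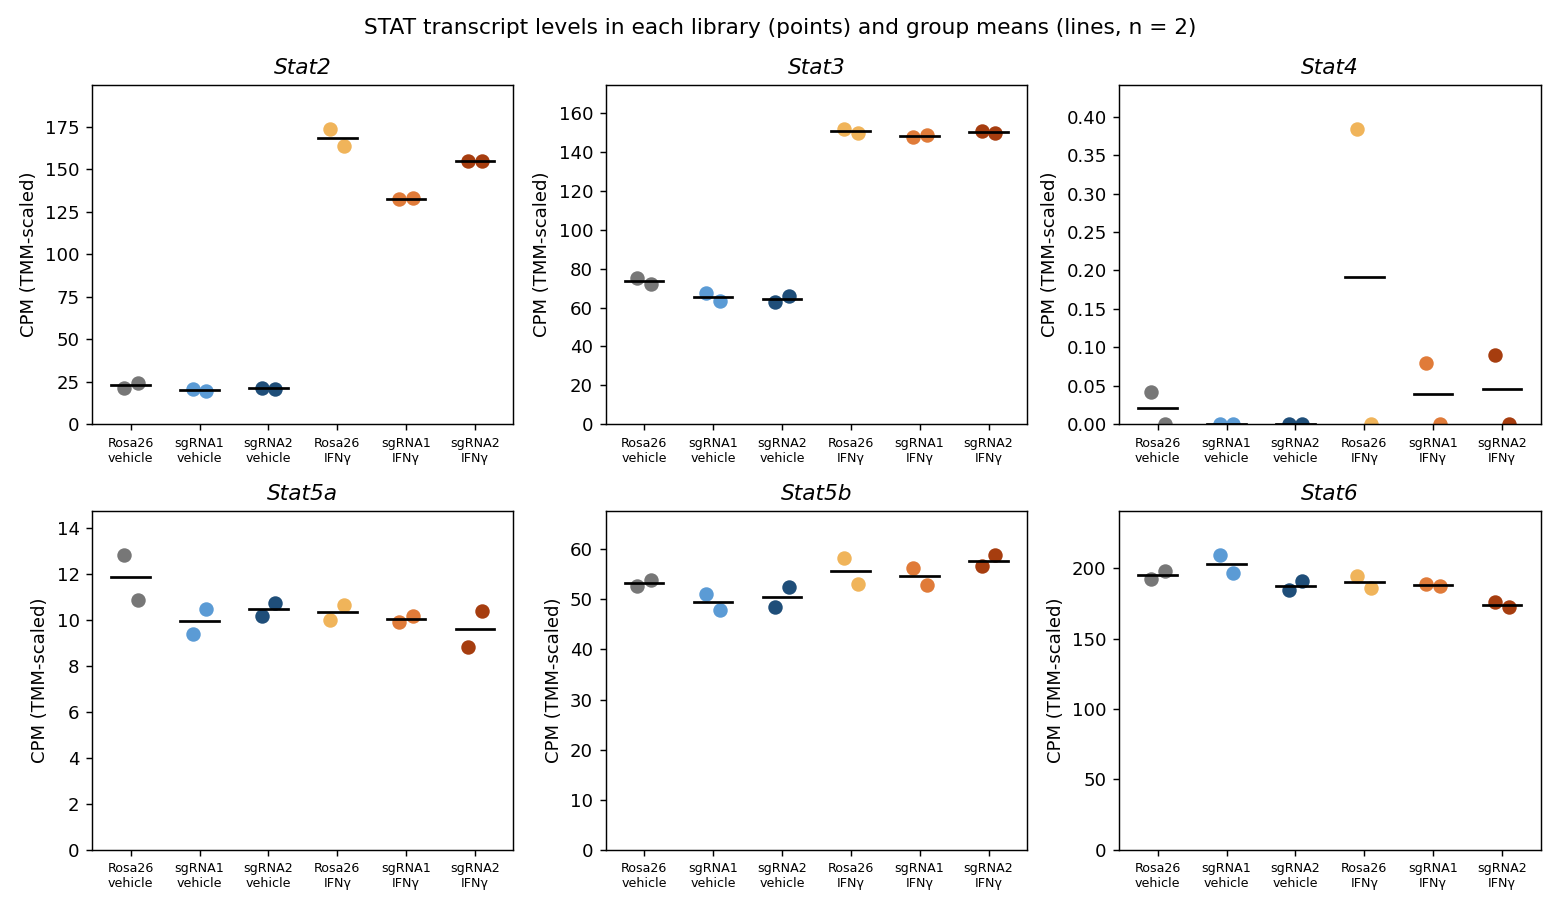
CPM of each STAT gene (vertical axes, linear, starting at 0 and scaled by gene) in the 6 groups (horizontal axes), with a point for each library and a line at each group mean of 2 libraries. Stat2 and Stat3 separate by treatment in every population, Stat5a, Stat5b and Stat6 change little, and Stat4 lies at or near 0.

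Stat5b, with Stat5a a mediator of prolactin and growth hormone signals, had 52.6 and 53.8 CPM in Rosa26 vehicle, 51.0 and 47.9 in Cop1_sgRNA1 vehicle, and 48.4 and 52.4 in Cop1_sgRNA2 vehicle. With IFNγ it had 58.2 and 53.0 CPM in Rosa26, 56.3 and 52.9 in Cop1_sgRNA1, and 56.6 and 58.9 in Cop1_sgRNA2. The treated and vehicle libraries of Cop1-loss cells did not overlap, whereas those of Rosa26 cells did. Stat5b rose by 0.17 ± 0.044 on the log2 scale in Cop1-loss cells (edgeR adjusted p = 0.00264) and differed by 0.06 ± 0.062 (adjusted p = 0.476) in Rosa26 cells. The rise was not called with Cop1_sgRNA1 as the only Cop1 guide (0.14, adjusted p = 0.106) or with the 2 libraries of each group summed, so that the guides were the replicates (adjusted p = 0.132).

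Stat5a had 12.8 and 10.9 CPM in Rosa26 vehicle and 10.02 and 10.7 in Rosa26 with IFNγ. In Cop1_sgRNA1 cells it had 9.41 and 10.5 CPM with vehicle and 9.91 and 10.2 with IFNγ, and in Cop1_sgRNA2 cells 10.2 and 10.8 with vehicle and 8.82 and 10.4 with IFNγ. The libraries of Rosa26 cells did not overlap between treatments and those of Cop1-loss cells did. Stat5a passed the threshold in no comparison. The 95% interval of its IFNγ change ran from -0.46 to 0.06 on the log2 scale in Rosa26 cells and from -0.24 to 0.14 in Cop1-loss cells.

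Stat6, the STAT of interleukin 4 and 13 signalling, moved little with IFNγ. Its vehicle values were 192.6 and 197.8 CPM in Rosa26, 209.4 and 196.5 in Cop1_sgRNA1, and 184.6 and 190.7 in Cop1_sgRNA2, and its IFNγ values were 194.7 and 185.7, 189.1 and 187.5, and 175.8 and 172.6. Treated and vehicle libraries overlapped in Rosa26 cells and, over both guides together, in Cop1-loss cells. Within each Cop1 guide the treated libraries lay below the vehicle libraries. Stat6 fell by 0.11 on the log2 scale (SE 0.026, edgeR adjusted p = 8.11e-04) in Cop1-loss cells, a call lost with the libraries of a group summed (adjusted p = 0.308). In Rosa26 cells the difference was -0.04 ± 0.037 (adjusted p = 0.477).

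Stat4 was at the edge of detection and was not tested. Its counts were 1 and 0 in Rosa26 vehicle and 0 in the other 4 vehicle libraries, where 3 counts, the limit that a count of 0 allows, correspond to between 0.092 and 0.158 CPM over the 12 libraries. With IFNγ the first replicate of Rosa26 held 9 counts and the first replicates of Cop1_sgRNA1 and Cop1_sgRNA2 held 2 each, while all 3 second replicates held 0. The 13 counts with IFNγ therefore came only from libraries numbered 1, and no difference between treatments is read from them. Such a limit covers counting error only, as the labels name no molecular identifiers.

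Whether the IFNγ response differed between Cop1-loss and Rosa26 cells was tested directly, as the difference of the log2 changes. None of the 5 members was called in edgeR or in DESeq2, and 1 had an unadjusted p under 0.05, where 5.74% of all genes were called, 3.38% with a larger and 2.36% with a smaller response in Cop1-loss cells. That member was Stat3, with a response larger by 0.17 ± 0.056 (adjusted p = 0.0706). It passed the threshold without replicate 1 of Cop1_sgRNA1 vehicle (0.19, adjusted p = 0.0451) or without replicate 2 of Cop1_sgRNA2 vehicle (0.18, adjusted p = 0.0457). For Stat2 the difference was -0.08 ± 0.074 (adjusted p = 0.616), with a 95% interval from -0.23 to 0.07. It was 0.10 ± 0.076 for Stat5b (adjusted p = 0.528), -0.07 ± 0.045 for Stat6 (adjusted p = 0.421) and 0.15 ± 0.160 for Stat5a (adjusted p = 0.703), so the Stat5b and Stat6 calls made only in Cop1-loss cells were not shown to differ from the Rosa26 response.

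**Figure D2:**
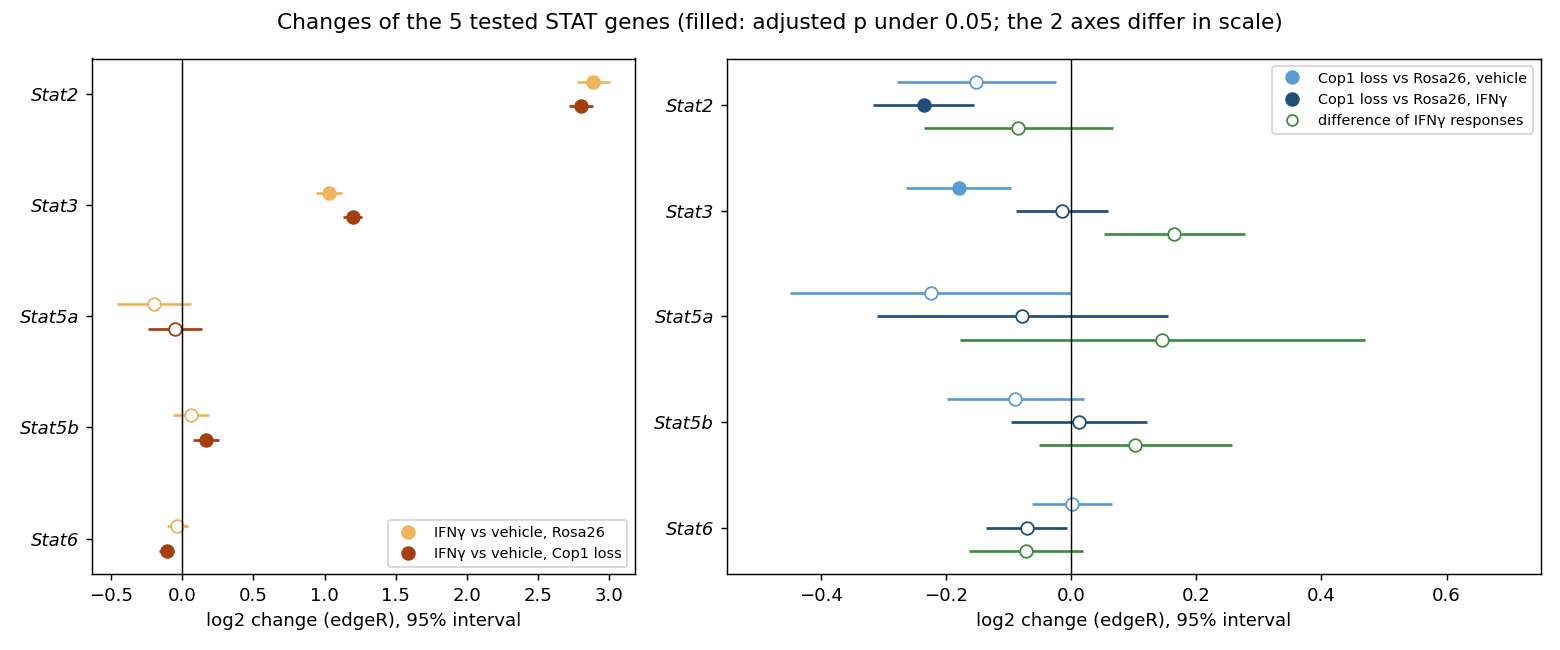
Log2 changes from edgeR (horizontal axes, which differ in scale between panels) for the 5 tested STAT genes. Bars span the 95% interval, and points are filled where the adjusted p was under 0.05. The IFNγ increases of Stat2 (2.89 and 2.81) and Stat3 (1.03 and 1.197) exceed every other change.

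With Cop1 loss, Stat3 was slightly lower at rest and Stat2 under IFNγ. With vehicle, the 4 Cop1-guide libraries of Stat3 lay between 63.04 and 67.8 CPM, below both Rosa26 libraries at 72.2 and 75.4. Stat3 fell by 0.18 on the log2 scale (SE 0.042, edgeR adjusted p = 6.27e-04), and it was the only member called of 5, where 19.2% of all genes were lower, 16.6% higher and 35.8% either. A count of 1 in 5 is near that background. The decrease was not called with the libraries of a group summed (adjusted p = 0.128), a setting in which Cop1 itself was not called (adjusted p = 0.342). By edgeR's glmTreat test, no decrease of a STAT gene with Cop1 loss was shown to exceed 1.2-fold. A decrease beyond 1.2-fold is not excluded by that test.

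Stat2 in vehicle was close to the threshold. Its 4 Cop1-guide libraries lay between 19.2 and 21.5 CPM and the Rosa26 libraries at 21.5 and 24.1, with a log2 difference of -0.15 ± 0.063 (edgeR adjusted p = 0.0562). It was called with Cop1_sgRNA1 as the only Cop1 guide (-0.18, adjusted p = 0.0451), without Rosa26 vehicle replicate 1 (-0.23, adjusted p = 0.0228) and without Cop1_sgRNA1 vehicle replicate 1 (-0.18, adjusted p = 0.0358). The other members with vehicle gave -0.22 ± 0.111 for Stat5a (adjusted p = 0.115), -0.09 ± 0.054 for Stat5b (adjusted p = 0.205) and 0.00 ± 0.032 for Stat6 (adjusted p = 0.983). The libraries of Stat6 overlapped between Rosa26 and Cop1-loss cells. Those of Stat2, Stat5a and Stat5b were separated by less than the range within either side, and none of these 3 was called.

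With IFNγ, Stat2 was lower in both Cop1-guide populations, at 132.3 to 155.2 CPM against 163.8 and 173.7 in Rosa26 cells. It fell by 0.24 on the log2 scale (SE 0.040, edgeR adjusted p = 5.66e-06), and it was the only member called of 5, where 20.7% of all genes were lower, 19.8% higher and 40.6% either. Against Rosa26 the group mean of Cop1_sgRNA1 fell by 21.5%, whereas that of Cop1_sgRNA2 fell by 8.13%. The call was lost with the libraries of a group summed (adjusted p = 0.125). Stat3 differed by -0.01 ± 0.037 (adjusted p = 0.792), with a 95% interval from -0.09 to 0.06, and its libraries overlapped.

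Stat6 with IFNγ differed by -0.07 ± 0.032 between Cop1-loss and Rosa26 cells (edgeR adjusted p = 0.0735). It was called with Cop1_sgRNA2 as the only Cop1 guide (-0.13, adjusted p = 0.0071) and without Rosa26 IFNγ replicate 2 (-0.10, adjusted p = 0.0489). Stat5a and Stat5b gave -0.08 ± 0.115 (adjusted p = 0.629) and 0.01 ± 0.054 (adjusted p = 0.871).

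The guides differed in Stat2 and Stat6. With IFNγ, Stat2 was higher by 0.23 ± 0.047 on the log2 scale in Cop1_sgRNA2 than in Cop1_sgRNA1 cells (edgeR adjusted p = 9.73e-04). Any relation to the lower Cop1 mRNA of Cop1_sgRNA2 cells was not tested. Stat6 was lower by 0.11 in Cop1_sgRNA2 cells with IFNγ (SE 0.037, adjusted p = 0.0488). Stat2 and Stat6 made 2 of 5 members called with IFNγ, where 9.41% of all genes differed between the guides. With vehicle, 1 of 5 differed, Stat6, at -0.12 ± 0.036 (adjusted p = 0.0492), where 5.99% of all genes did. Both Stat6 calls lay just under the threshold and were lost in DESeq2 (adjusted p = 0.116 with vehicle and 0.0961 with IFNγ). The call with IFNγ was also lost without any 1 of its 4 libraries (adjusted p from 0.126 to 0.235), and the call with vehicle without replicate 1 of Cop1_sgRNA1 (adjusted p = 0.536) or of Cop1_sgRNA2 (adjusted p = 0.288).

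Ordered by level, Stat2 was highest in Rosa26 with IFNγ (168.8 ± 6.96 CPM), followed by Cop1_sgRNA2 with IFNγ (155.0 ± 0.183) and Cop1_sgRNA1 with IFNγ (132.6 ± 0.432), and these 3 neighbours did not overlap. The vehicle groups followed at 22.8 ± 1.85 (Rosa26), 20.97 ± 0.712 (Cop1_sgRNA2) and 19.9 ± 1.104 (Cop1_sgRNA1). The libraries of these Cop1-guide groups overlapped, and the Rosa26 libraries lay just above them. For Stat3 the treated groups stood at 151.0 ± 1.31 (Rosa26), 150.6 ± 0.770 (Cop1_sgRNA2) and 148.5 ± 0.697 (Cop1_sgRNA1). Rosa26 vehicle came next at 73.8 ± 2.26, above Cop1_sgRNA1 (65.7 ± 2.94) and Cop1_sgRNA2 (64.5 ± 2.04), whose libraries overlapped. Stat6 ran from 203.0 ± 9.15 in Cop1_sgRNA1 vehicle to 174.2 ± 2.26 in Cop1_sgRNA2 with IFNγ, Stat5b from 57.7 ± 1.63 in Cop1_sgRNA2 with IFNγ to 49.5 ± 2.20 in Cop1_sgRNA1 vehicle, and Stat5a from 11.9 ± 1.38 in Rosa26 vehicle to 9.61 ± 1.12 in Cop1_sgRNA2 with IFNγ.

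To compare the genes with each other, levels were divided by length, here the union of a gene's exons. In Rosa26 vehicle Stat6 stood first, at 44.3 ± 0.836 CPM per kb, followed by Stat5b (9.61 ± 0.154), Stat3 (7.75 ± 0.238), Stat2 (3.85 ± 0.313) and Stat5a (1.66 ± 0.193). With IFNγ, Stat2 moved to second place at 28.5 ± 1.17 CPM per kb and Stat3 to the place after it at 15.9 ± 0.137, ahead of Stat5b at 10.04 ± 0.661, with Stat6 still first at 43.2 ± 1.45. Stat6 ranked first in every group also by the length of the principal transcript, but by that length Stat3 (16.3 CPM per kb) stood above Stat5b (10.2) in Rosa26 vehicle, and in Cop1_sgRNA1 with IFNγ Stat3 (32.9) stood above Stat2 (30.2). Stat5b exceeded Stat5a 5.28 to 8.26 times per kb of exon union over the 12 libraries. By the principal transcript the excess was smaller. Stat5b then had 10.2 CPM per kb against 3.05 for Stat5a in Rosa26 vehicle, and 11.1 against 2.47 in Cop1_sgRNA2 with IFNγ.

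**Figure D3:**
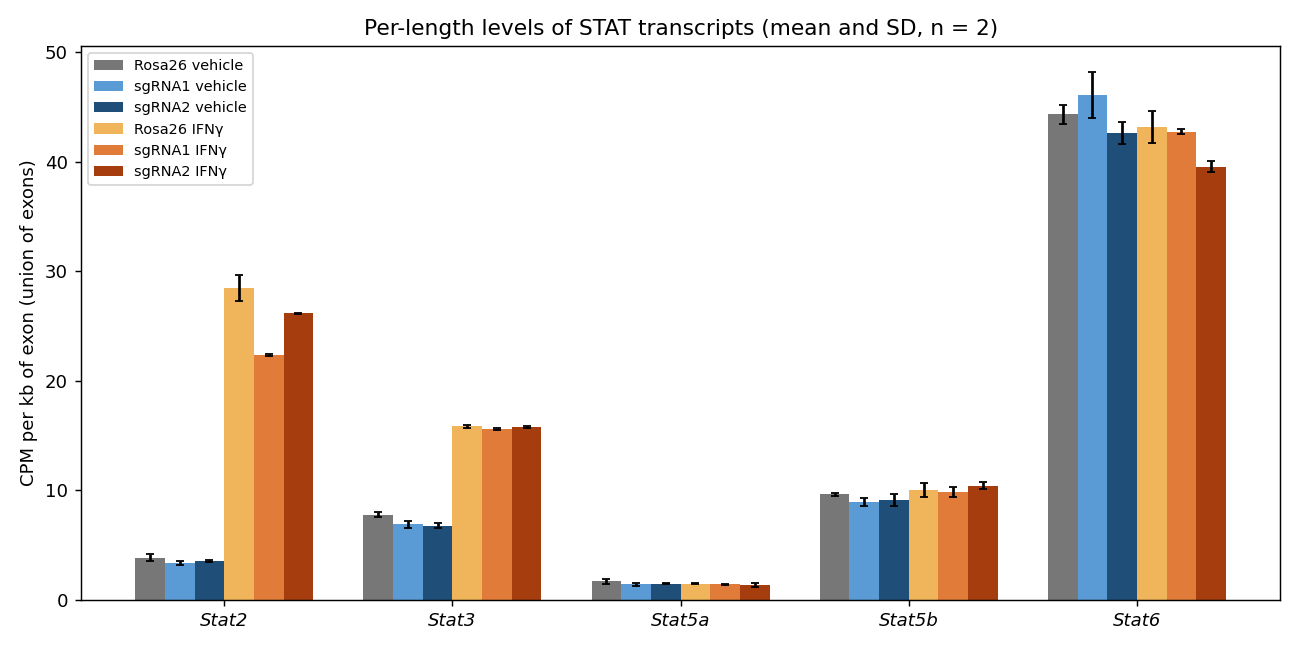
Levels per length (vertical axis, CPM per kb of exon union, from 0) of the 5 tested STAT genes in the 6 groups, as group mean and SD of 2 libraries. Stat6 is highest throughout, and Stat2 passes Stat3 and Stat5b with IFNγ.

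Across the 12 libraries, which share the treatment split, the log2 CPM of Stat2 and Stat3 had a Pearson correlation of 0.99, the highest of the 10 pairs among the 5 members, and Stat2 and Stat5b of 0.76. Among 9110 genes (mean log2 CPM from 3 upwards), the genes most like Stat2 by this measure were Irf1 (0.998), Tap1 (0.998) and Ogfr (0.998), and those most like Stat3 were Nampt (0.999), Gm12185 (0.998) and Tmem229b (0.998). Stat5b was most like Rnf20 (0.906) and Stat6 most like Serpinb6a (0.904). These are descriptions over libraries that share treatment and cell population, with no test.

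JAK kinases and cytokine receptors act upstream of the STATs. Of the 4 JAK kinases, none was called in edgeR or DESeq2 with IFNγ in Rosa26 cells or with Cop1 loss in vehicle, and 1 had an unadjusted p under 0.05 in each case. With IFNγ in Cop1-loss cells 2 of 4 were called higher, where 18.1% of all genes were. These were Jak2 (0.13 ± 0.033, edgeR adjusted p = 0.00175) and Jak1 (0.08 ± 0.030, adjusted p = 0.0459). The Jak1 call was lost under RLE scaling (adjusted p = 0.0537), in DESeq2 (adjusted p = 0.120) and with either guide alone. It was also lost without vehicle replicate 1 of Cop1_sgRNA1 (adjusted p = 0.199) or Cop1_sgRNA2 (adjusted p = 0.221), and without IFNγ replicate 2 of Cop1_sgRNA1 (adjusted p = 0.196) or Cop1_sgRNA2 (adjusted p = 0.177). The Jak2 call was lost with Cop1_sgRNA1 as the only Cop1 guide (adjusted p = 0.166). Jak2, which sits on the IFNγ receptor, was higher by 0.13 ± 0.040 with Cop1 loss under IFNγ (edgeR adjusted p = 0.00802), a call lost without Rosa26 IFNγ replicate 1 (adjusted p = 0.0627). With the libraries of a group summed, 0 of the 4 JAK kinases were called with IFNγ in Cop1-loss cells or with Cop1 loss under IFNγ. Of 34 cytokine receptor genes that signal through STATs, 21 were tested. Cop1 loss lowered 10 of them with vehicle, with 0 higher and a list median of -0.24 against -0.01 over all genes, of which 19.2% were lower and 16.6% higher. With IFNγ it lowered 7 and raised 1, against 20.7% lower and 19.8% higher over all genes. The count with vehicle was 5 without replicate 2 of Rosa26 vehicle, 6 in DESeq2, 4 with the libraries of a group summed and 3 with the 1.2-fold threshold.

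Il6st, the shared signalling chain of the interleukin 6 family upstream of STAT3, fell from 170.6 ± 3.87 CPM in Rosa26 vehicle to 118.8 ± 1.76 in Cop1_sgRNA1 and 120.9 ± 2.98 in Cop1_sgRNA2 cells. Its log2 change was -0.51 ± 0.033 (edgeR adjusted p = 3.33e-16) with vehicle and -0.43 ± 0.034 (adjusted p = 5.10e-14) with IFNγ. Osmr, the oncostatin M receptor, which pairs with that chain, fell by 0.81 (SE 0.10, adjusted p = 2.23e-08) with vehicle and by 0.49 (SE 0.079, adjusted p = 2.86e-06) with IFNγ. IFNγ itself raised Osmr by 1.36 ± 0.10 in Rosa26 cells and by 1.68 ± 0.079 in Cop1-loss cells, and raised Il13ra1, a receptor chain upstream of STAT6, by 0.95 ± 0.057 and 0.97 ± 0.040. Il4ra, the other chain of that receptor, was lower with Cop1 loss under IFNγ (-0.44 ± 0.079, adjusted p = 1.92e-05).

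Il12rb1, a receptor chain for interleukins 12 and 23 upstream of STAT4, was the receptor gene whose IFNγ response differed with Cop1 loss. It went from 2.43 ± 0.0253 to 9.27 ± 0.257 CPM in Rosa26 cells, from 3.61 ± 1.07 to 23.4 ± 1.86 in Cop1_sgRNA1 cells and from 2.92 ± 0.0825 to 21.4 ± 1.19 in Cop1_sgRNA2 cells. The response was larger by 0.88 ± 0.22 (edgeR adjusted p = 0.0115) in Cop1-loss cells. That call was lost without Rosa26 vehicle replicate 1 (adjusted p = 0.0721) or replicate 2 (adjusted p = 0.0911) and without Rosa26 IFNγ replicate 1 (adjusted p = 0.0507), and with Cop1_sgRNA1 as the only Cop1 guide (adjusted p = 0.0514). Il12rb2 and Il23r, the other listed chains of the interleukin 12 and 23 receptors, reached at most 0.048 and 0.061 CPM in any library.

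Among 18 genes that restrain JAK-STAT signalling, all tested, IFNγ raised 6 and lowered 3 in Rosa26 cells, and raised 5 and lowered 3 in Cop1-loss cells. Over all genes 16.6% rose and 16.2% fell in Rosa26 cells and 18.1% and 16.1% in Cop1-loss cells, so the counts that fell were near the background. In Rosa26 cells the 9 calls were 5 without Rosa26 vehicle replicate 2, and DESeq2 called 6 higher and 0 lower. The suppressor Socs1 rose from 7.46 ± 0.736 to 44.0 ± 2.12 CPM in Rosa26 cells (log2 change 2.56 ± 0.10, edgeR adjusted p = 4.98e-24). Socs3, which curbs STAT3 signalling, rose by 1.495 ± 0.070 in Rosa26 and by 1.28 ± 0.047 in Cop1-loss cells. Over all genes Cop1 loss raised 16.6% and lowered 19.2% with vehicle, and raised 19.8% and lowered 20.7% with IFNγ. Of the 18, Cop1 loss raised 6 and lowered 3 with vehicle, and raised 6 and lowered 5 with IFNγ. The counts that were lower were near the background. With the libraries of a group summed, 1 was higher and 0 lower with vehicle, and 1 higher and 1 lower with IFNγ. The largest called change with Cop1 loss was that of Usp18, which removes the ubiquitin-like ISG15 and restrains interferon receptors. It was -0.67 ± 0.180 (adjusted p = 0.00299) with vehicle and -1.10 ± 0.114 (adjusted p = 1.17e-10) with IFNγ. The vehicle call was lost without Rosa26 vehicle replicate 1 (-0.49, adjusted p = 0.128). Socs4 was lower with IFNγ (-0.34 ± 0.057, adjusted p = 4.55e-06). Socs3 was higher by 0.42 ± 0.066 (adjusted p = 1.93e-06) with vehicle and 0.20 ± 0.053 (adjusted p = 0.00193) with IFNγ. The Socs4 call and the Socs3 call with vehicle did not hold under every alternative. With IFNγ the guides differed in Socs3. Cop1_sgRNA2 libraries (58.01 to 62.96 CPM) overlapped those of Rosa26 (56.87 to 59.2 CPM), whereas Cop1_sgRNA1 libraries lay above both (72.19 to 75.5 CPM). None of the 18 differed in its IFNγ response in edgeR or DESeq2, and 4 had an unadjusted p under 0.05.

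Irf9, the DNA-binding partner of STAT2 in ISGF3, rose with IFNγ by 2.44 ± 0.074 in Rosa26 cells and by 2.44 ± 0.053 in Cop1-loss cells. Its group means went from 15.9 ± 1.76 to 86.3 ± 3.75 CPM in Rosa26, from 12.02 ± 0.653 to 71.8 ± 2.06 in Cop1_sgRNA1 and from 16.6 ± 0.912 to 82.0 ± 4.29 in Cop1_sgRNA2 cells. Under IFNγ it was lower with Cop1 loss (log2 change -0.17 ± 0.052, edgeR adjusted p = 0.00786), which was not called with Cop1_sgRNA2 as the only Cop1 guide (adjusted p = 0.369) or without Rosa26 IFNγ replicate 1 (adjusted p = 0.173). Nmi, a STAT-binding protein that interferon induces, rose by 1.69 ± 0.072 and 1.73 ± 0.052.

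**Figure D4:**
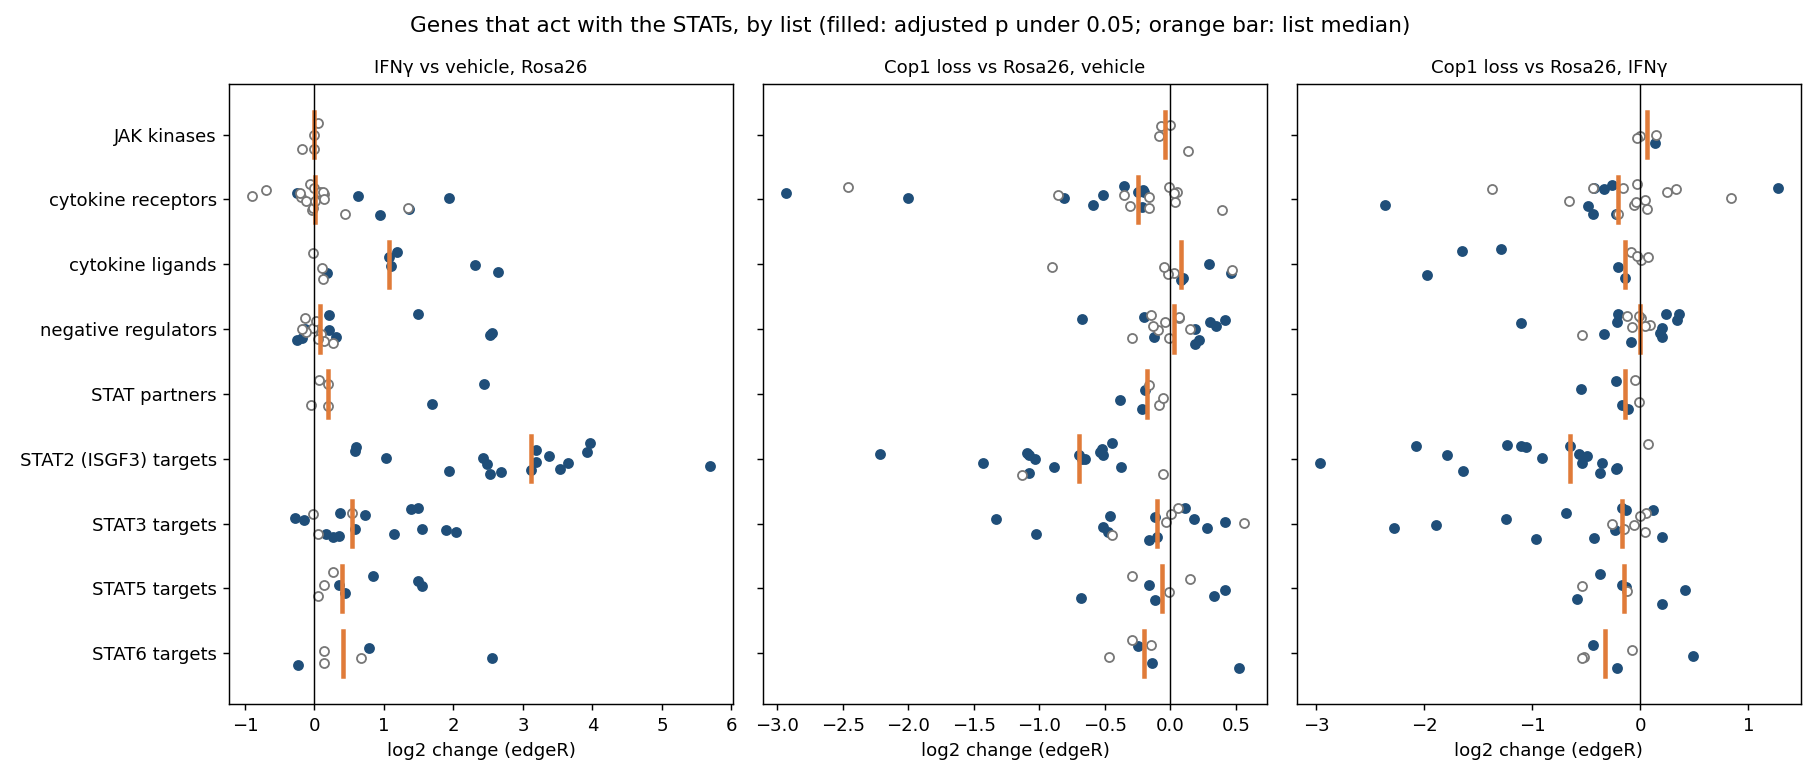
Log2 changes from edgeR (horizontal axes) of the tested genes on each list of STAT pathway genes, with filled points where the adjusted p was under 0.05 and an orange bar at each list's median. The median of the STAT2 target list lies at 3.12 with IFNγ in Rosa26 cells and at -0.70 with Cop1 loss in vehicle.

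Target lists were taken from textbook knowledge of each factor and share some genes, such as Socs3 and Pim1, and many of their genes answer to other factors too. Of 17 tested ISGF3 targets, all 17 rose with IFNγ in Rosa26 cells, with a list median of 3.12 against -0.01 over all genes. All 17 also rose in Cop1-loss cells (median 2.82). Over all genes 16.6% rose in Rosa26 cells and 18.1% in Cop1-loss cells. Cop1 loss lowered 19.2% and raised 16.6% of all genes with vehicle, and lowered 20.7% and raised 19.8% with IFNγ. Of the 17 targets, 15 fell and 0 rose with Cop1 loss in vehicle (median -0.70, or -0.67 with the 1 gene at or under 3 counts placed at that floor). With Cop1 loss under IFNγ 16 fell and 0 rose (median -0.65). The count with IFNγ was 10 with Cop1_sgRNA2 as the only Cop1 guide, and with the libraries of a group summed the counts were 1 with vehicle and 6 with IFNγ. Between the guides, 12 of 17 were higher in Cop1_sgRNA2 than in Cop1_sgRNA1 cells with IFNγ and 0 lower, where 9.41% of all genes differed in either direction. Stat2 stood in the same order. The summed level of the list was 1037 to 1047 CPM in Rosa26, 712.5 to 727.7 in Cop1_sgRNA1 and 880.3 to 930.3 in Cop1_sgRNA2 libraries with IFNγ. In the difference of the IFNγ responses 1 was higher, Oasl2 (0.51 ± 0.087, edgeR adjusted p = 8.38e-05), and 1 lower, Ifit1 (-0.70 ± 0.168, adjusted p = 0.00682). Over all genes 3.38% were higher and 2.36% lower, so these counts were near the background. The Ifit1 call was lost when replicate 1 of Rosa26 was left out, either with vehicle (adjusted p = 0.0657) or with IFNγ (adjusted p = 0.0637), and with Cop1_sgRNA2 as the only Cop1 guide (adjusted p = 0.224).

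Of 17 tested STAT3 targets, 12 rose and 2 fell with IFNγ in Rosa26 cells (median 0.54), and 11 rose and 2 fell in Cop1-loss cells (median 0.20). Pim1, a survival kinase on the STAT3 and STAT5 lists, rose by 1.54 ± 0.068 and 1.58 ± 0.049. Over all genes 16.6% rose and 16.2% fell in Rosa26 cells and 18.1% and 16.1% in Cop1-loss cells. Cop1 loss lowered 8 and raised 4 with vehicle, against 19.2% and 16.6% of all genes, and lowered 9 and raised 2 with IFNγ, against 20.7% and 19.8%. With the libraries of a group summed, the calls in these 4 comparisons numbered 7, 7, 5 and 6. The response of 4 was smaller in Cop1-loss cells and of 0 larger, against 2.36% and 3.38% of all genes. The count of 4 was 2 without Rosa26 vehicle replicate 2 or without Cop1_sgRNA2 vehicle replicate 2. It was 3 in DESeq2 and 0 with the libraries of a group summed. Junb, an AP-1 subunit, was 1 of the 4. It went from 297.6 ± 13.4 to 495.1 ± 1.53 CPM in Rosa26 cells. In Cop1_sgRNA1 cells it went from 214.2 ± 1.53 to 245.6 ± 0.440, and in Cop1_sgRNA2 cells from 219.6 ± 2.84 to 261.7 ± 2.54. Its difference of responses was -0.51 ± 0.039 (edgeR adjusted p = 1.002e-12), a call lost with the libraries of a group summed.

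Of 14 STAT5 targets listed, 8 were tested, and 3 had no count in any library (Csn2, Csn1s1 and Wap). Socs3, Pim1 and Bcl2l1 among the 8 are also on the STAT3 list. Of the 8 tested, 5 rose and 0 fell with IFNγ in Rosa26 cells, against 16.6% and 16.2% of all genes. Over all genes Cop1 loss raised 16.6% and lowered 19.2% with vehicle, and raised 19.8% and lowered 20.7% with IFNγ. Of these 8 targets, 2 were higher and 3 lower with vehicle, and 2 higher and 4 lower with IFNγ. The counts that were higher were near the background. With the libraries of a group summed, 1 was higher and 1 lower with vehicle, and 1 higher and 2 lower with IFNγ. The largest called change with Cop1 loss was that of Pim2, a survival kinase, at -0.68 ± 0.117 (edgeR adjusted p = 7.70e-06) with vehicle and -0.59 ± 0.101 (adjusted p = 7.27e-06) with IFNγ. Bcl6, a transcriptional repressor, was lower with IFNγ (-0.37 ± 0.065, adjusted p = 9.42e-06), a call that did not hold under every alternative. Ccnd1, which encodes cyclin D1, was higher by 0.33 ± 0.021 (edgeR adjusted p = 5.10e-17) with vehicle and by 0.41 ± 0.021 (adjusted p = 3.96e-20) with IFNγ. Of 15 STAT6 targets listed, 6 were tested and 5 had no count in any library. Of the 6 tested, 2 rose and 1 fell with IFNγ in Rosa26 cells, and 1 rose and 2 fell with Cop1 loss in either treatment. The count of 1 of 6 that rose with Cop1 loss is near the background of 16.6% with vehicle and 19.8% with IFNγ, and counts over so few genes are given as a description. Tgm2, a transglutaminase, was the one that rose, by 0.52 ± 0.090 (adjusted p = 9.21e-06) with vehicle and 0.49 ± 0.079 (adjusted p = 2.86e-06) with IFNγ.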

How the data were processed

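RNA sequencing libraries of 12 samples of 4T1 cells were analysed from the authors' deposited whole-number counts per gene, which were not normalized. Per the labels' protocols, RNA was extracted with a QIAGEN kit and the Illumina TruSeq RNA kit served for library preparation. The submitters' processing notes name STAR 2.4.0, DESeq2 1.10, HTSeq without a version, and build mm10. The sources used here do not give the annotation, strand setting or handling of multi-mapping reads. The last row, which holds totals, entered neither library sizes nor tests.

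Every comparison used edgeR 4.0.16 under R 4.3.3, with its quasi-likelihood F test with TMM scaling, robust empirical Bayes and 1 mean for each of the 6 groups (6 residual degrees of freedom). After filterByExpr, with minimum count 10 and minimum total 15, 11904 genes remained, and Benjamini-Hochberg adjustment ran over all of them, with a threshold of 0.05. Replicate libraries varied by 3.21% beyond counting noise. Cop1 loss is the mean of both guides on the log2 scale. Comparisons that share groups are not independent of each other. Replicates were distinct libraries by a chi-square of their counts (2.33 to 4.21 per degree of freedom over the 6 groups). Scripts were tested on simulated data with 200 altered genes.

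Alternatives were RLE scaling, no filter, DESeq2 1.42.0, a 1.2-fold threshold by glmTreat, only the groups compared, a replicate block, each library left out, each guide alone, and the libraries of a group summed. From each pathway list up to 3 called genes with the largest change and a mean log2 CPM of at least 0 could be named per comparison, besides the STAT members, Cop1, the JAK kinases and Irf9, and the 3 genes most like each member. Other list genes named in the text were chosen after their values were seen. The members and lists were chosen with earlier results of these data known. The gene most like Stat5a is not reported here.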

Additional observations from a re-analysis of the deposited data

How the results depend on the processing

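The IFNγ increases of Stat2 and Stat3 kept their direction and their call under every alternative run, and the other member calls were small changes. Genes called numbered 699, 943, 1024, 939, 41, 25 and 39 with the 1.2-fold threshold, in the order Cop1 loss with vehicle, Cop1 loss with IFNγ, IFNγ in Rosa26, IFNγ in Cop1-loss cells, difference of the responses, and guides with vehicle and with IFNγ. With the libraries of a group summed the first 5 comparisons gave 865, 1397, 1102, 1364 and 0, from fewer samples. The difference gave 448 in DESeq2 and 416 with Cop1_sgRNA1 as the only Cop1 guide, which also gave 2674 for IFNγ in Cop1-loss cells. Leaving out a library gave 353 to 745 for the difference, 348 to 693 for the guides with vehicle and 420 to 721 with IFNγ. The cause of these shifts was not tested.

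Members called numbered 0 with the 1.2-fold threshold for Cop1 loss in either treatment and for the guides in either treatment, and 2 for IFNγ in Cop1-loss cells. With summed libraries they numbered 0 for Cop1 loss in either treatment and 2 for IFNγ in Cop1-loss cells. Cop1 loss gave 2 with Cop1_sgRNA1 as the only Cop1 guide in vehicle and 2 with Cop1_sgRNA2 with IFNγ. The guides with vehicle gave 0 in DESeq2 and 0 in a fit of those groups only, and the guides with IFNγ gave 1 in DESeq2. Leaving out a library gave 1 to 2 for Cop1 loss in vehicle and with IFNγ, 0 to 1 for the difference and for the guides with vehicle, and 1 to 1 for the guides with IFNγ.

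Among members, signs turned only for changes that were not called. Stat6 with Cop1 loss in vehicle gave -0.0564 with Cop1_sgRNA2 alone and -0.0233 to 0.0227 with a library left out. Stat5b with Cop1 loss under IFNγ gave -0.0259 with Cop1_sgRNA1 alone and -0.0504 to 0.0826 with a library left out. In Rosa26 cells, the IFNγ change ran from -0.0060 to 0.135 for Stat5b and from -0.0720 to 0.00265 for Stat6 with a library left out. Stat5a with IFNγ in Cop1-loss cells gave 0.0222 with Cop1_sgRNA1 alone and -0.113 to 0.00547 with a library left out. Between the guides a left-out library moved Stat3 with vehicle from -0.0708 to 0.0205, Stat5b with vehicle from -0.0361 to 0.0799, and Stat5a with IFNγ from -0.186 to 0.0501. Of list genes, Csf3 gave -0.0909 with Cop1_sgRNA2 alone in vehicle and 0.0557 with Cop1_sgRNA1 alone with IFNγ, Gata3 0.0103 and Irf9 0.0650 with Cop1_sgRNA2 alone in vehicle, and the Irf9 difference 0.125 with Cop1_sgRNA1 alone and -0.123 to 0.104 with a library left out.

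Same-numbered libraries did not deviate together (correlations -0.04 to 0.04 over 15 pairs of groups), and the replicate block changed no member call (4292 genes called for Cop1 loss with vehicle). RLE scaling shifted no median by more than 0.003. For the difference, a fit of only its groups is the fit already given. Stat4 had at most 9 counts in a library and was not tested. The alternatives for list counts and list genes were chosen after seeing the data.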

Other observations

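Cytokine genes whose receptors signal through STAT3 and STAT5 were themselves among those that changed with IFNγ. Of 21 ligand genes listed, 9 were tested, and IFNγ raised 6 and lowered 0 in Rosa26 cells, where 16.6% of all genes rose and 16.2% fell. Lif, a ligand of the interleukin 6 family, rose from 165.6 ± 1.02 to 354.7 ± 4.07 CPM in Rosa26 cells (log2 change 1.099 ± 0.033, edgeR adjusted p = 1.33e-28). Of the same 9 genes, 6 had a smaller IFNγ response in Cop1-loss than in Rosa26 cells and 0 a larger one, against 2.36% and 3.38% of all genes. The count of 6 was 5 in DESeq2 and 0 with the libraries of a group summed.

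Il11, another ligand of that family, stood at 2.85 ± 0.258 CPM in Rosa26 vehicle and 6.03 ± 0.576 in Rosa26 with IFNγ. In Cop1_sgRNA1 cells it had 2.83 ± 0.155 and 2.46 ± 0.0957 CPM, and in Cop1_sgRNA2 cells 3.002 ± 0.443 and 2.49 ± 0.194. The difference of its responses was -1.32 ± 0.28 on the log2 scale (edgeR adjusted p = 0.00175). For Lif the difference was -0.23 ± 0.041 (adjusted p = 1.59e-04).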
